A study of Mus musculus with 2 samples.

Results

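The 35 genes described here mark radial glia and astrocytes, and were set by a list of symbols rather than by their values. Each symbol matched 1 gene of the 43346 genes in the deposited tables, so all 35 were measured. They were followed in total RNA of whole forebrain from newborn mice of strain B6NCrl at postnatal day 0. Each of the 2 libraries came from the single forebrain of 1 pup, pup 1 (replicate 1) and pup 3 (replicate 2), and was made from 10 ng of RNA longer than 200 nt with spike-in RNAs added. Both pups carried no stated treatment or allele and formed 1 group, so the study holds no contrast between conditions. The labels give both pups the same donor identifier and the sex as not collected, and nothing more on how the forebrains differ. Only the pup numbers mark the samples as separate animals. An exact sign-flip test over 2 pups has a smallest two-sided p of 0.5, so no test was made and the values of each pup are given.

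Radial glia are the stem cells of the embryonic forebrain: their cell bodies line the ventricle, their long fibres guide migrating neurons, and they divide to give neurons and later glia. Around birth many of them leave the ventricle and become astrocytes, which then take up potassium, water and transmitter, feed neurons with lipids and metabolites, and wrap blood vessels with end-feet. Markers such as Pax6 belong to the first state, S100b and Aqp4 to the mature one, and many others, such as Slc1a3, to both.

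Expected counts of genes totalled 40066047 in pup 1 and 40431315 in pup 3, and the members held 252772 and 236016 of them. Levels are deposited TPM (transcript abundance scaled to one total in each library, a level per length), with the SD between the pups where a mean is given (n = 2). Beside each TPM the tables give an interval around a second estimate, the posterior mean TPM, and the sources used here do not give the level of that interval. For 9 members the TPM lay outside this interval in at least 1 pup. In bulk tissue, fewer cells of a type and less RNA per cell cannot be told apart. All 8 radial glia markers and all 8 astrocyte markers checked had at least 1 TPM in both pups, and so did all 6 neuron markers, all 6 of oligodendrocyte precursors, all 6 of microglia and all 5 of endothelium. Of the 5 choroid plexus markers 4 did, and the remaining lists had all of their markers at that level. Of the radial glia markers Pax6, Fabp7 and Hopx are members, and of the astrocyte markers Aldh1l1, Aqp4, Aldoc and S100b.

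All 35 members reached 1 TPM in pup 1 and in pup 3, against 60.7% of the 21461 nuclear protein-coding genes. Their median level was 57.5 TPM, with 68.6 TPM in pup 1 and 47.8 TPM in pup 3, which put it at percentile 78.5 of the 13017 detected protein-coding genes, whose own median was 17.0 TPM. The members spread widely: the highest, Fabp7, stood 1000-fold above the lowest, Hopx. In both pups 26 members had at least 10 TPM, 12 had at least 100 TPM and 3 had at least 1000 TPM. Those 3, Fabp7, Dbi and Apoe, made up 61.1% of the members' summed TPM in pup 1 and 66.2% in pup 3. At the other end, 10 members lay below the median detected protein-coding gene.

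**Figure D1:**
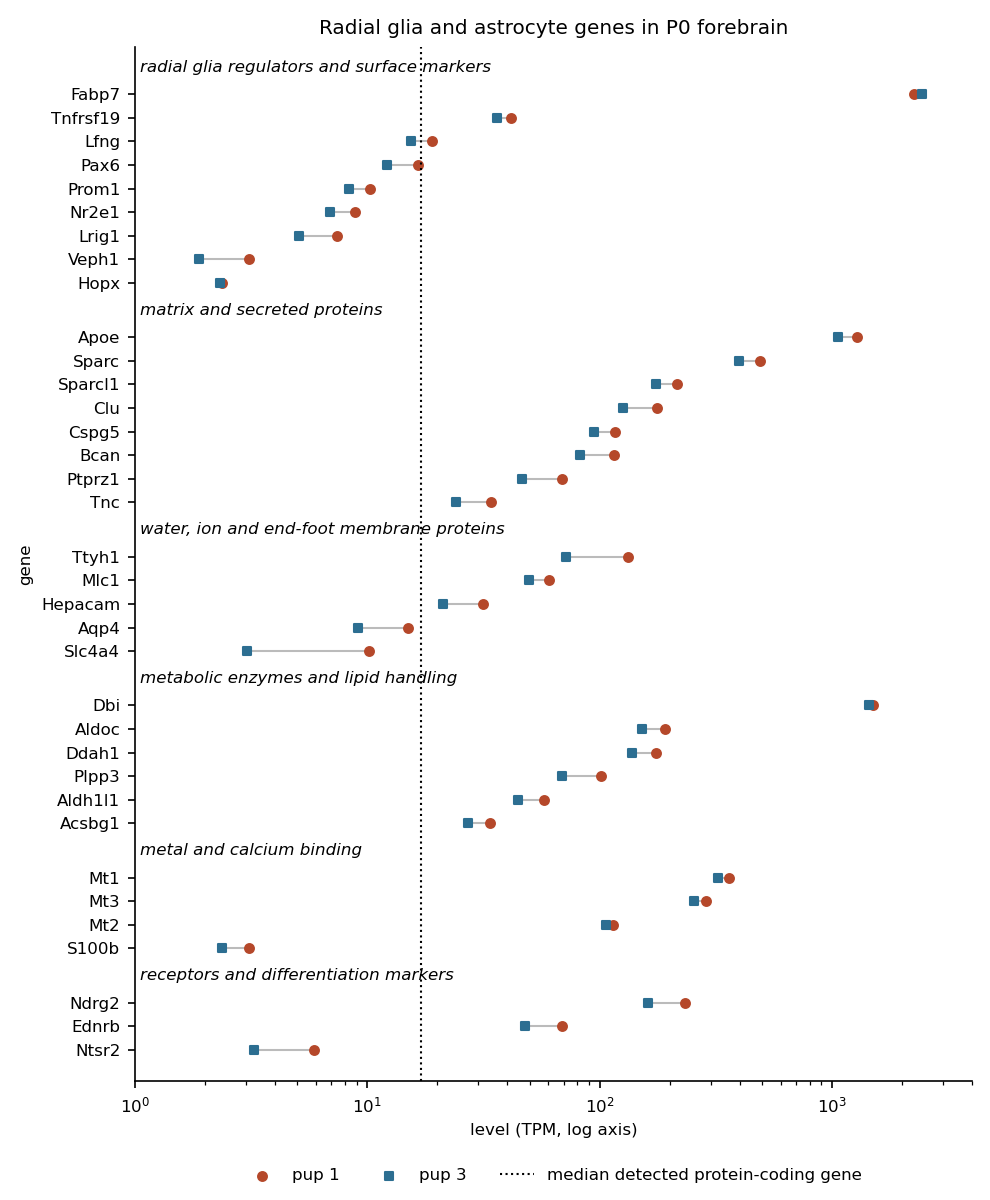
Level of each member (TPM, log axis) in pup 1 (circles) and pup 3 (squares), grouped by role; the dotted line marks the median detected protein-coding gene at 17.0 TPM. Fabp7, Dbi and Apoe stand above 1000 TPM in both pups, Slc4a4 shows the widest gap between the pups on this axis, and Fabp7 is the 1 member with a higher value in pup 3.

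The 9 regulators and surface markers of radial glia were split between 1 very abundant carrier protein and 8 genes of low or moderate level, with a median of 9.32 TPM. Fabp7, the fatty acid carrier that fills the fibres of radial glia, had 2258 TPM in pup 1 and 2433 TPM in pup 3, percentile 99.9 of detected protein-coding genes. It was the only member with a lower TPM in pup 1, by 0.11 on the log2 scale. Tnfrsf19, a receptor of the tumour necrosis factor family found on neural progenitors, had 41.3 TPM in pup 1 and 36.3 TPM in pup 3. Lfng, the fringe glycosyltransferase that changes how Notch receptors answer their ligands, had 19.1 TPM in pup 1 and 15.5 TPM in pup 3.

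Pax6, the paired-box transcription factor of cortical radial glia, had 16.5 TPM in pup 1 and 12.1 TPM in pup 3. Prom1, the cholesterol-binding membrane protein on the apical protrusions of progenitors, had 10.3 TPM in pup 1 and 8.36 TPM in pup 3. Nr2e1, the orphan nuclear receptor that keeps neural stem cells dividing, had 8.82 TPM in pup 1 and 6.89 TPM in pup 3. These 3 classical stem cell genes thus lay under the level of the median detected protein-coding gene, and far below Fabp7, in both pups. Lrig1, a transmembrane protein that dampens growth factor receptors, had 7.43 TPM in pup 1 and 5.06 TPM in pup 3. Veph1, named for its expression in the ventricular zone, had 3.10 TPM in pup 1 and 1.88 TPM in pup 3. Hopx, an atypical homeodomain protein known from human outer radial glia, was the lowest member, with 2.36 TPM in pup 1 and 2.33 TPM in pup 3, from 61.3 and 67.4 expected counts.

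The 8 matrix and secreted proteins had a median level of 128 TPM. Apoe, the main lipid carrier that astrocytes secrete, had 1285 TPM in pup 1 and 1058 TPM in pup 3. Sparc, a collagen-binding protein that blood vessel cells and microglia also make, had 489 TPM in pup 1 and 396 TPM in pup 3. Its relative Sparcl1, also called hevin, which promotes synapse formation, had 215 TPM in pup 1 and 175 TPM in pup 3. Clu, a secreted chaperone also called apolipoprotein J, had 176 TPM in pup 1 and 126 TPM in pup 3, below Apoe in both.

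The 4 matrix molecules of glia among them were lower. Cspg5, a membrane-bound chondroitin sulphate proteoglycan, had 117 TPM in pup 1 and 94.1 TPM in pup 3. Bcan, the brain-specific lectican brevican, had 115 TPM in pup 1 and 82.3 TPM in pup 3. Ptprz1, a receptor tyrosine phosphatase that carries chondroitin sulphate and binds pleiotrophin, had 68.6 TPM in pup 1 and 46.4 TPM in pup 3. Tenascin-C, the matrix glycoprotein of germinal zones, was the lowest of this role: Tnc had 34.2 TPM in pup 1 and 24.2 TPM in pup 3.

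The 5 water, ion and end-foot membrane proteins had a median of 26.3 TPM and, of the 6 roles, the highest median ratio between the pups, 0.72 on the log2 scale. Ttyh1, a tweety-family membrane protein, had 133 TPM in pup 1 and 71.7 TPM in pup 3. Mlc1 and Hepacam form a complex at end-feet whose loss causes a leukoencephalopathy with cysts in humans. Mlc1 had 60.4 TPM in pup 1 and 49.4 TPM in pup 3, and Hepacam had 31.4 TPM in pup 1 and 21.3 TPM in pup 3. Aqp4, the water channel of end-feet, had 15.04 TPM in pup 1 and 9.12 TPM in pup 3, so it lay below the median detected gene at birth. Slc4a4, the sodium bicarbonate cotransporter NBCe1, had 10.2 TPM in pup 1 and 3.03 TPM in pup 3.

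The 6 genes of metabolism and lipid handling had a median of 121 TPM. Dbi, the acyl-CoA binding protein and source of peptides that act on GABA-A receptors, had 1498 TPM in pup 1 and 1438 TPM in pup 3. Aldoc, the brain form of the glycolytic enzyme aldolase, had 191 TPM in pup 1 and 152 TPM in pup 3. Ddah1, which degrades an inhibitor of nitric oxide synthase, had 175 TPM in pup 1 and 137 TPM in pup 3. The other 3 were lower in both pups. Plpp3, a membrane phosphatase of bioactive lipid phosphates, had 101 TPM in pup 1 and 68.9 TPM in pup 3. Aldh1l1, the folate enzyme used as a general astrocyte marker, had 57.7 TPM in pup 1 and 44.5 TPM in pup 3, and Acsbg1, which activates very long fatty acids, had 33.7 TPM in pup 1 and 27.2 TPM in pup 3.

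The metal and calcium binding genes paired 3 abundant metallothioneins with 1 calcium sensor near the detection limit. Metallothioneins are small proteins that bind zinc and copper through cysteines; Mt1 and Mt2 are induced by metals and glucocorticoids in many tissues, and Mt3 is found mainly in brain. Mt1 had 361 TPM in pup 1 and 324 TPM in pup 3, and Mt2 had 114 TPM in pup 1 and 107 TPM in pup 3. Mt3 had 286 TPM in pup 1 and 254 TPM in pup 3, between its 2 relatives in both pups. S100b, the calcium-binding protein of mature astrocytes, had 3.11 TPM in pup 1 and 2.36 TPM in pup 3, percentile 10.8 of detected protein-coding genes.

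The 3 metallothionein genes lie on the plus strand of chromosome 8 in the order Mt3, Mt2, Mt1, with 18517 bases between Mt3 and Mt2 and 5513 bases between Mt2 and Mt1. Their coding sequences are shown because the levels of near relatives rest on reads that can be told apart. They are read from GENCODE M21 transcripts, whose lengths of 549, 511 and 536 bases for Mt1, Mt2 and Mt3 differ from the 540, 556 and 538 of the deposited tables, and run 5′ to 3′ without the stop codon, and capitals mark the 20 cysteine codons that each of them holds.
Mt1 coding sequence: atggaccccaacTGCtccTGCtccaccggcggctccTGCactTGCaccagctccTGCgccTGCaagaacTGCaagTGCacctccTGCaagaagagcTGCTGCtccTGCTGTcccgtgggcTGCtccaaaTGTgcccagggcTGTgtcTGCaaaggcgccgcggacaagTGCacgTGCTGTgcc
Mt2 coding sequence: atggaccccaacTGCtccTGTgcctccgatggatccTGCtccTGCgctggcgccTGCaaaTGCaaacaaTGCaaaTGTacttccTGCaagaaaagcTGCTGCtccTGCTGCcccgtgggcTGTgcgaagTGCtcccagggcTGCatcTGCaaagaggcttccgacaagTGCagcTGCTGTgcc
Mt3 coding sequence: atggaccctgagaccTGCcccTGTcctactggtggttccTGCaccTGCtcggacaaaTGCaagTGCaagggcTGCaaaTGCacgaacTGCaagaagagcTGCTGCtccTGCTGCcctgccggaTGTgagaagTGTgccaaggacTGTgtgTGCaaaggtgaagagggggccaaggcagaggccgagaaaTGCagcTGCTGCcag
Mt1 and Mt2 share 79.2% of 183 aligned positions, Mt1 and Mt3 65.7% of 204, and Mt2 and Mt3 67.2% of 204. Mt3 encodes 68 residues against 61 in the others, which leaves 21 gap positions in both alignments with it. The longest identical run between 2 of the 3 transcripts was 27 bases, between Mt1 and Mt3, short of the 100 bases that the effective lengths of the tables imply for a read.

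Metal response elements are the short sites through which the zinc-sensing factor MTF-1 acts on metallothionein genes. Their core was searched as TGCACNC and TGCGCNC on both strands in the RefSeq promoter windows of build GRCm38.p6, which run from 250 bases before to 50 after each gene start. The windows of the 3 genes are shown with these matches in capitals, since Mt1, Mt2 and Mt3 kept close ratios in both pups.
Mt1 promoter, chr8:94178839-94179138, plus strand: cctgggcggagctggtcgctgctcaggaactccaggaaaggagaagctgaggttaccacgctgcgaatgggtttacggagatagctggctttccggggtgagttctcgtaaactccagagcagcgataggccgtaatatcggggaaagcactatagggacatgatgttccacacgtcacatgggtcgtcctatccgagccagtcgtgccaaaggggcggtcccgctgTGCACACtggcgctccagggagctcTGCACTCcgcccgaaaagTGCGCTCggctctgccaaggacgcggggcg
Mt2 promoter, chr8:94172368-94172667, plus strand: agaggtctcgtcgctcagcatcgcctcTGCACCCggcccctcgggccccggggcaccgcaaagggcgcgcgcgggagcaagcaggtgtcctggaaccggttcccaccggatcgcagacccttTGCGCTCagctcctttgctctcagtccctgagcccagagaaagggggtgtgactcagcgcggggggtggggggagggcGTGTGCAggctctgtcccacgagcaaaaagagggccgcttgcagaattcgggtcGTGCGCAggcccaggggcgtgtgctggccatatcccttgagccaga
Mt3 promoter, chr8:94152357-94152656, plus strand: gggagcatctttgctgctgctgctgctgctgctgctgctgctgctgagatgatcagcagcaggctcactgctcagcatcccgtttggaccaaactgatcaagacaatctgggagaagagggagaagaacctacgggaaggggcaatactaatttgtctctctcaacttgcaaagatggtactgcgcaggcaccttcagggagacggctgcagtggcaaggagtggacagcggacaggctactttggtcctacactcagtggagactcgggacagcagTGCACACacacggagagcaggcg
The Mt1 window held 3 matches, all on the plus strand, and 1.97% of all 32851 windows held as many or more. The Mt2 window held 4 matches, 2 on each strand, and 0.517% of windows held as many or more. The Mt3 window held 1 match, and 25.7% of all windows held at least 1. No match overlapped another. Over the members, 43 windows of 31 genes were listed, and 34.9% of them held a match, against 25.7% of all windows. The half-site TTGGCA of nuclear factor I proteins, which drive glial genes, was in 18.6% of the members' windows and 14.1% of all windows. Its matches fell in 8 members, Aldoc, Apoe, Hepacam, Lfng, Mt1, S100b, Tnc and Veph1. These matches describe letters only.

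The last 3 members are receptors and markers of differentiation. Ndrg2, a hydrolase-like protein abundant in astrocytes, had 233 TPM in pup 1 and 161 TPM in pup 3. Ednrb, the endothelin receptor of glia and of migrating neural crest, had 68.8 TPM in pup 1 and 47.8 TPM in pup 3. Ntsr2, the low-affinity neurotensin receptor of astrocytes, had 5.91 TPM in pup 1 and 3.26 TPM in pup 3, from 213 and 133 expected counts.

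The difference between the pups was then taken as the log2 ratio of TPM + 0.1, pup 1 over pup 3, which understates the difference of low genes. Among the 14985 genes that averaged at least 1 TPM the median ratio was 0.27, with quartiles of 0.06 and 0.52, so most genes had a higher TPM in pup 1. The members' median was 0.35, or 0.07 after TMM scaling, which sets the bulk of genes level and brought the median of all genes to -0.01. By deposited TPM 34 of 35 members were higher in pup 1, against 80.4% of all genes. After TMM scaling 27 were higher and 8 lower in pup 1, against 48.3% of all genes higher. The 7 members that turned direction were Apoe, Tnfrsf19, Mt3, Mt1, Mt2, Dbi and Hopx, of which Dbi and Hopx also turned when TPM was rescaled over nuclear protein-coding genes.

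A member was taken to differ where its ratio was 2-fold or more and the deposited intervals did not overlap. That rule called 3.85% of all genes as higher in pup 1 and 0.127% as higher in pup 3. Of the members it called 1, Slc4a4, a share of 2.86%, near that of all genes, and none was called as higher in pup 3. Taking only the intervals after TMM scaling, 12 of 35 members (34.3%) were higher in pup 1 with intervals apart, against 17.9% of all genes, and 6 (17.1%) were higher in pup 3, against 23.4% of all genes. The 12 were Slc4a4, Ttyh1, Ntsr2, Aqp4, Ptprz1, Hepacam, Plpp3, Ndrg2, Ednrb, Tnc, Bcan and Clu. The 6 were Fabp7, Dbi, Mt1, Mt2, Mt3 and Tnfrsf19. By deposited TPM the intervals were apart in 32 of 35 members, in either direction, against 53.6% of all genes. The members' median level lay at percentile 78.5 of detected protein-coding genes, and the part of level in these shares was not tested. All 5 members of the end-foot role had positive ratios after TMM scaling, with Mlc1 at 0.00 to 2 decimals, and the 3 metallothioneins had negative ones.

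**Figure D2:**
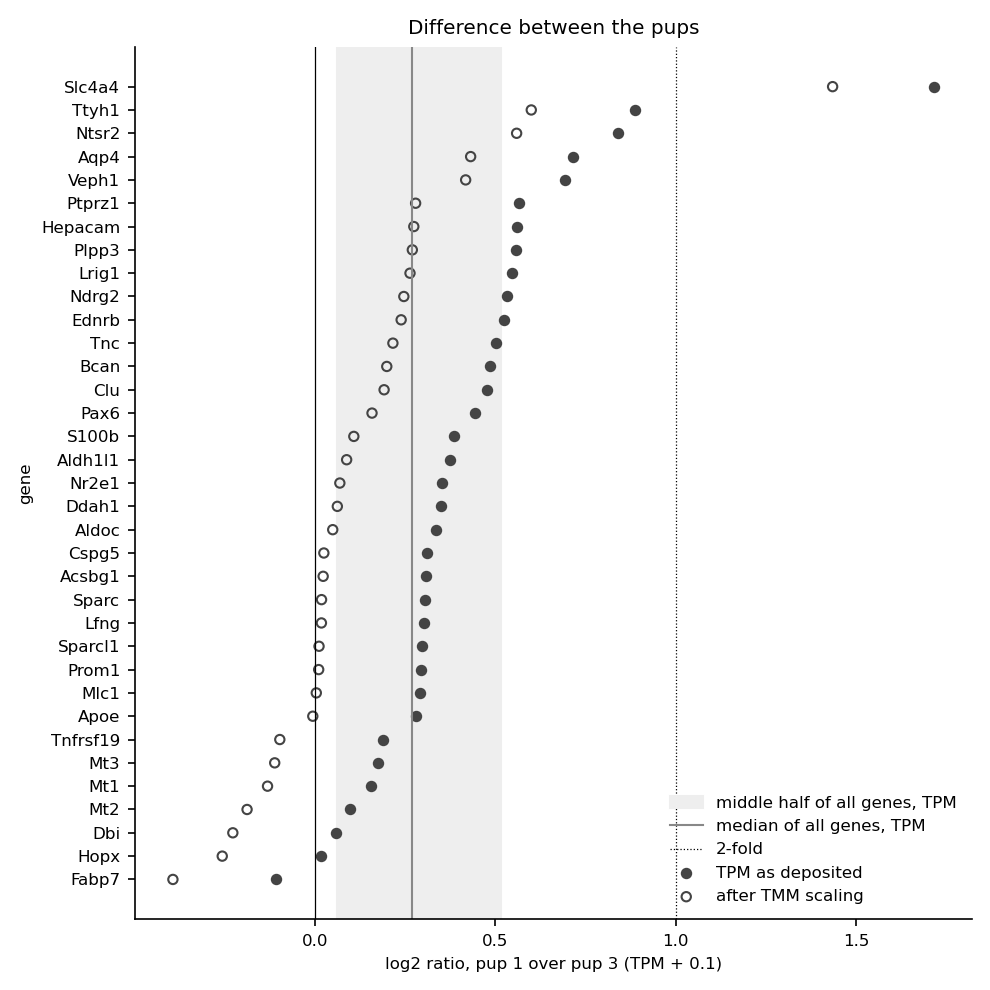
Log2 ratio of each member, pup 1 over pup 3, by deposited TPM (filled) and after TMM scaling (open); the grey band spans the quartiles of all 14985 genes by deposited TPM, the grey line their median of 0.27, and the dotted line marks 2-fold. Slc4a4 alone lies past 2-fold, and by deposited TPM only Fabp7 lies left of 0.

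Slc4a4 stood at 10.2 TPM in pup 1, with an interval of 9.55 to 11.6, and at 3.03 TPM in pup 3, with an interval of 2.92 to 4.19, from 1432 and 525 expected counts. The intervals are far apart, and the ratio was 1.72 on the log2 scale by deposited TPM and 1.43 after TMM scaling. Below it came Ttyh1 at 0.89, Ntsr2 at 0.84, Aqp4 at 0.72 and Veph1 at 0.69 by deposited TPM, and these 4 with Slc4a4 were the 5 members past 1.5-fold with intervals apart, a threshold that 16.9% of all genes passed in either direction. After TMM scaling 2 members passed 1.5-fold, against 8.09% of all genes.

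Markers of brain regions and cell types were compared between the pups as well. All 5 diencephalon markers passed the 2-fold rule as higher in pup 1, and their summed level was 448 TPM in pup 1 and 177 TPM in pup 3. Tcf7l2, the transcription factor of thalamic neurons, had 243 TPM in pup 1 and 93.1 TPM in pup 3, and Lhx9, also of the diencephalon, had 23.0 TPM in pup 1 and 5.26 TPM in pup 3. The 5 cerebral cortex markers summed to 307 TPM in pup 1 and 457 TPM in pup 3, of which Neurod6 held 206 and 329 TPM. None of the 5 passed the 2-fold rule. By deposited TPM 1 of them was higher in pup 1, Fezf2, with 33.4 TPM in pup 1 and 33.1 TPM in pup 3. After TMM scaling none of these 5 was higher in pup 1. The 5 erythroid markers summed to 2264 TPM in pup 1 and 3207 TPM in pup 3, and none of them passed the 2-fold rule. No marker of these 3 lists was at 0 in either pup. Of all the marker lists checked, these 3 had the widest fold differences in summed level. The 8 astrocyte markers summed to 591 TPM in pup 1 and 449 TPM in pup 3. All 8 were higher in pup 1 by deposited TPM, and 7 after TMM scaling. The 8 radial glia markers summed to 2823 TPM in pup 1 and 2877 TPM in pup 3. Of them 7 were higher in pup 1 by deposited TPM, and 5 after TMM scaling. The part of region or blood in the ratio of Slc4a4 or any other member was not tested, and the labels do not say how the forebrains were cut.

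Gene length moved with the ratios as well. Across the 35 members the ratio and the gene length had a Spearman correlation of 0.59, and across the 14985 genes one of 0.44, both as descriptions of the same 2 libraries. The 9 members under 1500 nucleotides had a median ratio of 0.15, the 11 between 1500 and 3000 one of 0.44, and the 15 of 3000 or more one of 0.52. All genes of the same classes had medians of 0.03, 0.24 and 0.43. Fabp7, Dbi and the metallothioneins, the members with the lowest ratios beside Hopx and Tnfrsf19, are all short transcripts. The part of length in the ratios was not tested.

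**Figure D3:**
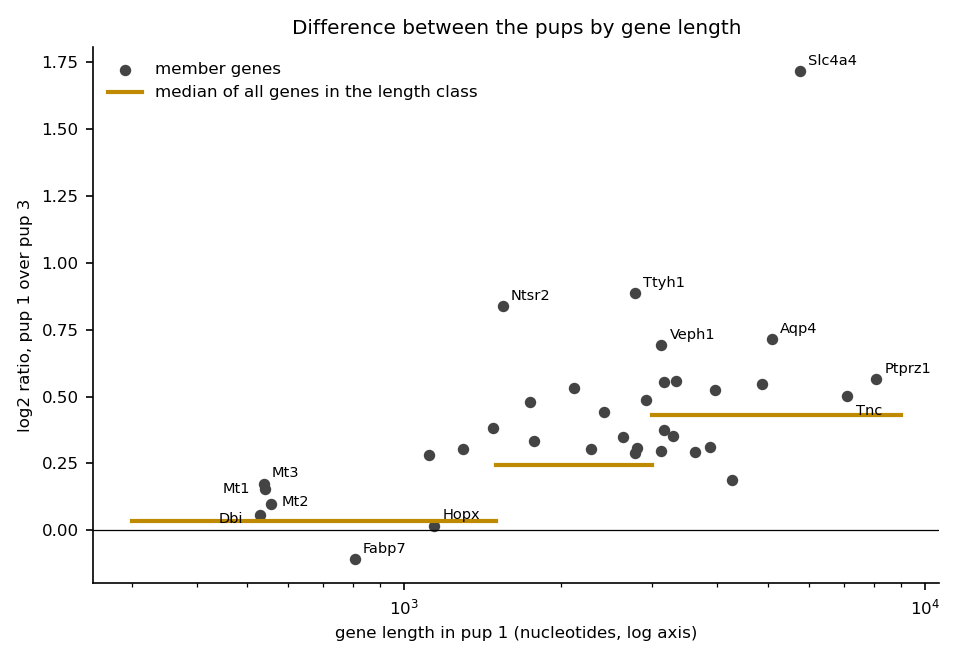
Log2 ratio of TPM, pup 1 over pup 3, against gene length in pup 1 (nucleotides, log axis) for the 35 members, with the median of all genes in 3 length classes as bars at 0.03, 0.24 and 0.43. Fabp7, Dbi, Hopx and the metallothioneins lie between -0.11 and 0.17, the short Apoe, Sparc and S100b between 0.28 and 0.38, and Slc4a4 above every other member.

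The transcript tables give each transcript's share of its gene's TPM in percent. For 12 members they list 1 transcript, so no isoform can be told apart; these are Ptprz1, Aqp4, S100b, Mt1, Mt2, Mt3, Sparcl1, Cspg5, Ntsr2, Plpp3, Hepacam and Lfng. That leaves the secreted and short forms of Ptprz1 and the translation starts of Aqp4 unresolved here. In 22 of the other 23 members the same transcript led in both pups, and in 6 of these 23 it held at least 90% in each. In 7 members the leading transcript held under 60% in at least 1 pup.

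Pax6 was the 1 member whose leading transcript differed. Pax6-202, which encodes 422 residues, held 23.6% in pup 1 and 17.3% in pup 3, and Pax6-225, which encodes 436 residues, held 18.7% in pup 1 and 27.4% in pup 3. The 2 proteins differ by exon 5a, which inserts residues into the paired domain and changes the DNA sequence that Pax6 prefers. The exon has 42 bases at chr2:105684751-105684792 on the plus strand, and is shown in capitals with 15 bases of the flanking exons on each side.
Pax6 exon 5a: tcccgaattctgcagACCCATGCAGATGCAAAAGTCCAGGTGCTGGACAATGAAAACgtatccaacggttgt
Transcripts with this exon held 33.7% of Pax6 TPM in pup 1 and 51.2% in pup 3, and transcripts that skip it held 38.7% in pup 1 and 27.9% in pup 3. The exon's share among transcripts that either hold or skip it was 46.6% in pup 1 and 64.7% in pup 3. These shares were divided by the authors' quantification among 26 transcripts, of which 9 hold the exon and 10 skip it, and rest on 952 and 802 expected counts of the gene. With 2 pups and no interval on the shares, the difference has no replicate check.

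Ndrg2 has an exon of the same size that separates its long and short proteins of 371 and 357 residues. It lies at chr14:51911086-51911127 on the minus strand, and is shown in the same way. The table's lengths of both forms, 2157 nucleotides with the exon and 2115 without it, differ from the 2099 and 2103 of M21, so the exon is that of the later annotation.
Ndrg2 alternative exon: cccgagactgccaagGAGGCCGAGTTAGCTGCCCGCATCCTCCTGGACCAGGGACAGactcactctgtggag
The form without the exon dominated, with 94.0% in pup 1 and 89.1% in pup 3, and the form with it held 6.05% in pup 1 and 10.9% in pup 3. In TPM the form without it had 219 in pup 1 and 144 in pup 3, and the form with it had 14.1 in pup 1 and 17.6 in pup 3.

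The 3 main Slc4a4 transcripts were all higher in pup 1. Slc4a4-207, which encodes the 1079 residues of the widespread variant NBCe1-B, had 5.48 TPM in pup 1 and 1.90 TPM in pup 3. Slc4a4-208, which skips a 97-base exon and encodes the 1094 residues of the brain variant NBCe1-C, had 3.20 TPM in pup 1 and 0.90 TPM in pup 3. Slc4a4-202, of 1070 residues, had 1.12 TPM in pup 1 and 0.24 TPM in pup 3. Their shares stayed in the same order, with Slc4a4-207 at 53.9% in pup 1 and 62.5% in pup 3, and Slc4a4-208 at 31.5% in pup 1 and 29.5% in pup 3.

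Tnc was divided between a form with a 91-residue fibronectin-type segment and forms without it. Tnc-203, of 2110 residues, held 53.3% in pup 1 and 56.02% in pup 3, and forms of 2019 residues held 46.7% in pup 1 and 44.0% in pup 3. The segment is 1 exon of 273 bases at chr4:63984460-63984732. Prom1 was also divided: Prom1-202, of 867 residues, held 50.7% in pup 1 and 59.4% in pup 3, and forms of 827 residues held 48.0% in pup 1 and 35.0% in pup 3. Prom1-202 holds separate exons of 69, 24 and 27 bases that Prom1-207, of 827 residues, lacks. The table's Prom1-202 is 3743 nucleotides long and that of M21 is 3966, so its structure here is that of the later annotation.

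In 2 members a transcript annotated as a retained intron led. Sparc-205, 741 nucleotides long, held 48.2% of Sparc TPM in pup 1 and 44.8% in pup 3, but 25.8% of its expected counts in pup 1 and 22.6% in pup 3, since TPM divides by length. The coding Sparc-201 held 22.1% of TPM in pup 1 and 27.1% in pup 3, and 40.5% of counts in pup 1 and 46.8% in pup 3. Veph1-203 held 49.7% of Veph1 TPM in pup 1 and 44.9% in pup 3, and the coding Veph1-201 held 35.2% in pup 1 and 38.2% in pup 3. By counts Veph1-201 led, with 73.7% in pup 1 and 76.0% in pup 3. Ttyh1 was spread over more transcripts than these, with forms of 450 residues at 58.4% in pup 1 and 62.4% in pup 3. Its forms of 460 residues held 15.2% in pup 1 and 14.6% in pup 3, and those marked for nonsense-mediated decay held 12.8% in pup 1 and 12.9% in pup 3. Bcan-201, which encodes the 883 residues of secreted brevican, held 88.6% in pup 1 and 88.3% in pup 3, and Clu-201, of 448 residues, held 94.0% in pup 1 and 95.1% in pup 3.

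**Figure D4:**
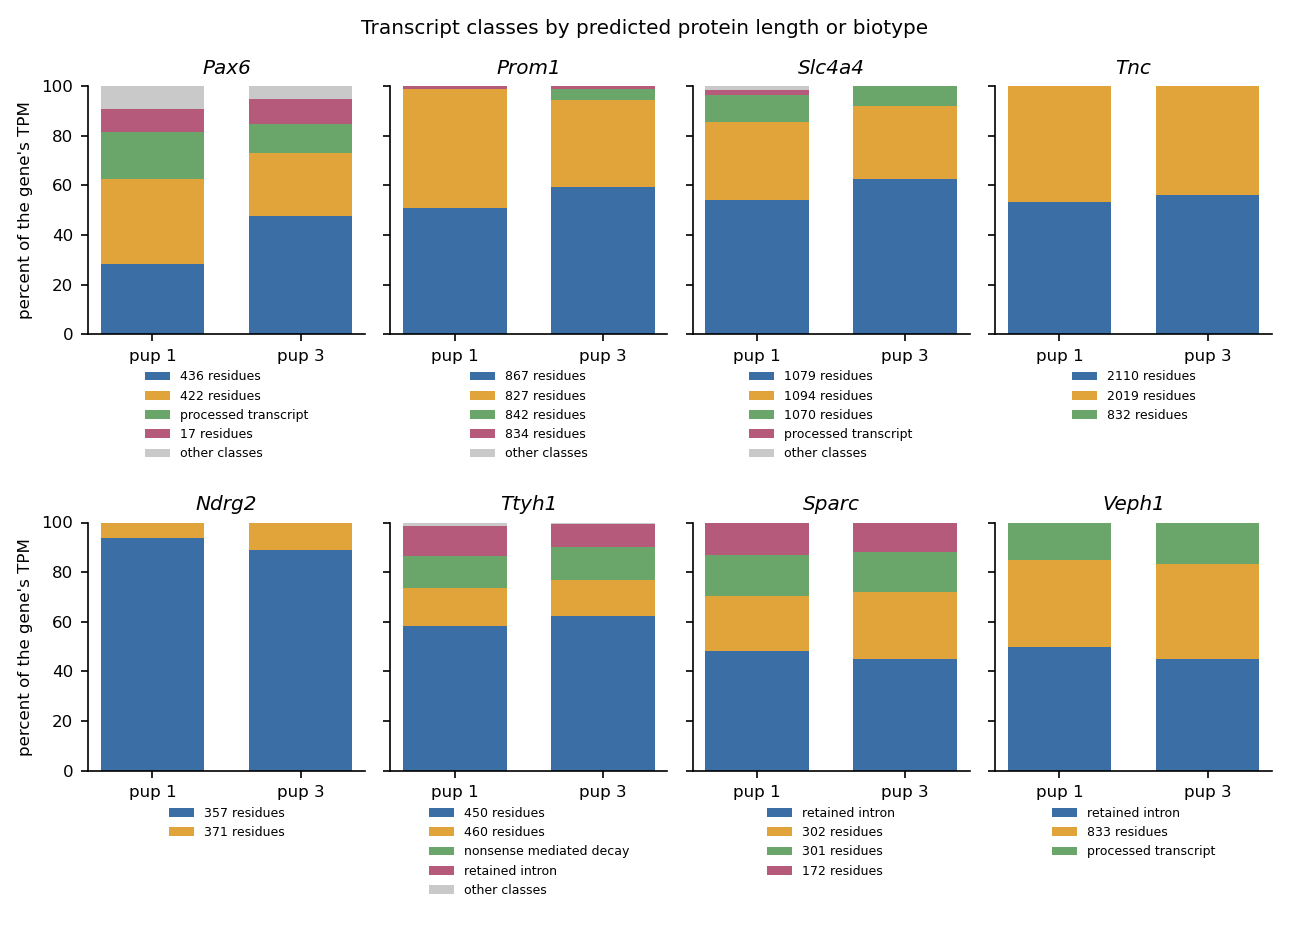
Share of the gene's TPM (percent) by class of transcript in pup 1 (left bar) and pup 3 (right bar) for 8 members; classes are the length of the predicted protein or, for other transcripts, the annotated biotype. In Pax6 the 436-residue class held 28.4% in pup 1 and 47.7% in pup 3, and in Tnc and Ndrg2 the order of the classes is the same in both pups.

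Ratios between 2 genes of the same pup do not depend on how the libraries are scaled. A pair was taken to differ in level where the mean log2 ratio over the pups was larger than 3 SD with 1 sign, which 12 of the 13 pairs of members met. The pairs were chosen with earlier results of these data known, and the share of all gene pairs that meet the criterion was not computed. The count therefore describes the chosen pairs only. Fabp7 exceeded S100b 704-fold in pup 1 and 989-fold in pup 3, the widest gap of the 13 pairs. Fabp7 exceeded Aldoc 11.8-fold in pup 1 and 16.04-fold in pup 3. Pax6 and Hopx, also among the radial glia markers checked, lay below the astrocyte markers set beside them. The log2 ratio of Pax6 to Aldh1l1 was -1.84 ± 0.05 (SD, n = 2), and that of Hopx to Aqp4 was -2.27 ± 0.49.

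Some of the chosen pairs had close ratios in the 2 pups, though the same spread was not computed for all gene pairs. Sparc exceeded Sparcl1 2.28-fold in pup 1 and 2.27-fold in pup 3, though without division by length the mean log2 ratio turned to -0.10, since Sparcl1 is the longer gene. The Sparc level in this ratio includes the retained-intron Sparc-205, with 236 TPM in pup 1 and 178 TPM in pup 3. The log2 ratio of Mt1 to Mt2 was 1.63 ± 0.04, that of Mt3 to Mt1 was -0.34 ± 0.01, and that of Tnc to Bcan was -1.76 ± 0.01. Apoe exceeded Clu 7.30-fold in pup 1 and 8.37-fold in pup 3, Mlc1 exceeded its partner Hepacam 1.92-fold in pup 1 and 2.32-fold in pup 3, and Mt3 exceeded S100b 89.2-fold in pup 1 and 103-fold in pup 3. Nr2e1 lay below Pax6, with a log2 ratio of -0.85 ± 0.06. Bcan and Cspg5 had no separation beyond the pups' spread, with a mean log2 ratio of -0.10 ± 0.12.

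**Figure D5:**
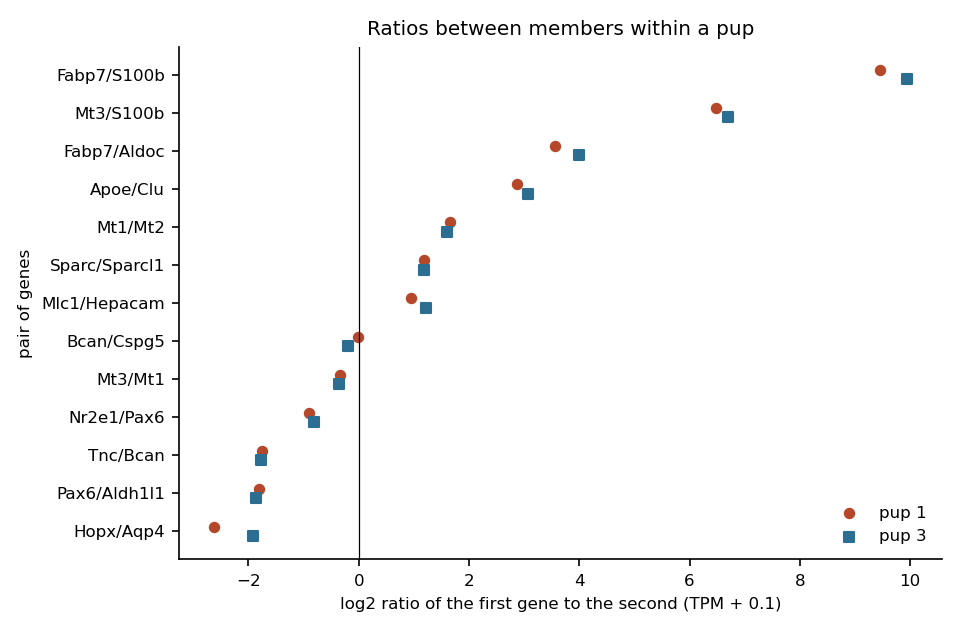
Log2 ratio of TPM + 0.1 between the genes of the 13 member pairs in pup 1 (circles) and pup 3 (squares). Fabp7/S100b lies furthest right, the metallothionein, Sparc/Sparcl1 and Tnc/Bcan points nearly coincide, and Bcan/Cspg5 lies at -0.02 in pup 1 and -0.19 in pup 3.

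Members were also set beside relatives of their own gene families, and 12 of 20 such pairs, chosen in the same way, passed the same criterion. Fabp7 exceeded Fabp5, a fatty acid carrier of many cell types, by 1.20 ± 0.07 on the log2 scale. Aldoc lay below Aldoa, the widespread aldolase, at -1.55 ± 0.01, and Ndrg2 lay below the neuronal Ndrg4 at -0.99 ± 0.21 but above Ndrg1 at 2.30 ± 0.33. Ednrb exceeded its relative Ednra 21.9-fold in pup 1 and 16.5-fold in pup 3. Ptprz1 exceeded Ptprg at 1.92 ± 0.11. Lfng lay below Rfng at -2.55 ± 0.08, and Ttyh1 lay above Ttyh2 at 2.17 ± 0.50. Lrig1 lay above Lrig3 at 2.35 ± 0.53 and slightly below Lrig2 at -0.36 ± 0.10, a gap that posterior mean TPM left at -0.26 and short of the criterion. Acsbg2 was listed at 0 in both pups, against 33.7 and 27.2 TPM of Acsbg1, and Prom2 had 0.01 TPM in pup 1 and 0.03 TPM in pup 3, so these 2 pairs passed without a meaningful fold.

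The other 8 pairs did not separate. Slc4a4 stood above Slc4a7, another bicarbonate cotransporter, 1.39-fold in pup 1, whereas its ratio to Slc4a7 was 0.643 in pup 3. Aqp4 and Aqp1, the water channel of choroid plexus, had a ratio of 1.45 in pup 1 and 1.00 in pup 3. Ntsr2 lay below the neuronal Ntsr1 in both pups, at a ratio of 0.522 in pup 1 and 0.222 in pup 3, but the spread was too wide. The remaining pairs that did not pass were Ttyh1 with Ttyh3, Lfng with Mfng, Ddah1 with Ddah2, Plpp3 with Plpp1 and Bcan with Ncan.

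Beyond the members, 38 other genes known from radial glia and astrocytes were measured, and 35 of them reached 1 TPM in each pup, with a median of 31.2 TPM over the 38. The 3 highest were Cst3, a secreted protease inhibitor, with 983 TPM in pup 1 and 987 TPM in pup 3, Gpm6b, a proteolipid, with 333 TPM in pup 1 and 241 TPM in pup 3, and the intermediate filament Vim, with 237 TPM in pup 1 and 189 TPM in pup 3. The 3 lowest were Slc14a1, Phkg1 and Grin2c, with 1.96, 0.99 and 0.42 TPM in pup 1 and 0.70, 0.34 and 0.29 TPM in pup 3. Vim exceeded Gfap, the filament of mature astrocytes, 5.17-fold in pup 1 and 7.14-fold in pup 3. The glutamate transporter Slc1a3, a marker of both radial glia and astrocytes, exceeded the later Slc1a2 10.8-fold in pup 1 and 18.3-fold in pup 3. Of the 36 other genes that averaged at least 1 TPM, 3 passed the 2-fold rule as higher in pup 1, against 3.85% of all genes. These were Slc1a2, Pla2g7 and Slc14a1. Slc1a2 had 15.3 TPM in pup 1 and 6.59 TPM in pup 3, and Pla2g7, named for passing the rule after its values were seen, had 66.9 TPM in pup 1 and 27.3 TPM in pup 3. The median log2 ratio of the 36 was 0.45, against 0.27 for all genes. After TMM scaling 17 of the 36 were higher in pup 1 with intervals apart, against 17.9% of all genes. Another 7 were higher in pup 3, against 23.4% of all genes.

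Last, the overlap of members with other genes was described. A gene of the annotation overlaps 10 of the members, and in 4 it held at least 10% of the member's expected counts in a pup. S100b lies opposite Dip2a, which had 1013 expected counts in pup 1 and 811 in pup 3, against 107 and 92 for S100b. Veph1 lies opposite Ptx3, with 293 counts in pup 1 and 307 in pup 3, against 233 and 168 for Veph1. Lrig1 lies opposite Slc25a26, which had 335 counts in pup 1 and 331 in pup 3, and Hopx opposite the antisense gene Hopxos, which had 11.7 counts in pup 1 and 1.57 in pup 3. These are total counts of each gene, and reads in common were not counted. The sources used here do not say whether counting used strand, and the part of the overlaps in the low levels of these 4 members was not tested. Of the leading transcripts, 28 shared no stretch of 100 bases with a transcript of another gene in M21; 21 of the 35 leading transcripts have the same length in M21 as in the deposited tables, so for the others these shares hold for the later annotation. The largest share among the other 7 was that of Mt2, where 27.4% of such stretches also occur in Gm45774, followed by Hopx with 8.78% in Hopxos and Prom1 with 5.41% in Gm16401. Lrig1 shared 0.783% with Slc25a26, and S100b and Veph1 shared none. The search covered only the leading transcript, which for Veph1 is the retained-intron Veph1-203.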

How the data were processed

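Total RNA of 2 newborn mouse forebrains was sequenced, 1 library each. The deposited notes name assembly mm10 and the GENCODE M4 annotation; aligner, quantifier and strand setting were not given in the sources used here. Gene tables deposited by the authors hold expected counts, which need not be whole, and TPM, with a posterior mean TPM and interval bounds, treated as signal values per the file headers. The deposited transcript tables give each transcript's share in percent. Symbols came from GENCODE M21 by identifier without version; 42462 of 43346 genes matched. Expected counts of genes totalled 40066047 in pup 1 and 40431315 in pup 3.

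Computed here were log2 ratios with a pseudocount of 0.1, fold and interval calls, pair ratios, isoform shares and motif counts. Expected counts were rounded for TMM factors (edgeR 4.0.16, minimum count 10) and DESeq2 1.42.0 size factors, which were applied to TPM and its bounds. Other tools were R 4.3.3, Python 3.11.15, pandas 2.3.3 and Biopython 1.88. Nothing but the pup numbers says that the samples are separate animals, so the spread may be technical in part.

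Every member is named. Of the other genes, the 3 highest, the 3 lowest and those in a pair are named, and Pla2g7 besides, chosen after its values were seen. Isoforms are described where the leading transcript held under 60%, changed or was noncoding, or has known variants, and overlapping genes where they hold 10% or more of counts. The members were set by a list of symbols. Roles, pairs and the lists of other genes and markers were chosen with earlier results of these data known. Alternatives were thresholds, pseudocounts, posterior means, scalings and each pup alone.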

Additional observations from a re-analysis of the deposited data

How the results depend on the processing

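The members' median log2 ratio of pup 1 over pup 3, 0.35 by deposited TPM, moved to 0.0687 under TMM scaling and to 0.0617 under DESeq2 size factors, and lay between 0.29 and 0.35 under the other settings. The count of members that differ between the pups was 1 under TMM scaling, rescaled TPM, a pseudocount of 1, no filter and without the intervals, and 5 at a fold of 1.5. All 35 members stayed detected except at a threshold of 5 TPM, where 30 did. Each pup alone gave a median level of 47.8 to 68.6 TPM and a percentile of 76.4 to 80.6. Pairs past the criterion numbered 26 of 35, and 21 to 31 under the alternatives. Of 105 pair ratios recomputed over both pups, 95 kept their side of the criterion and their direction, 1 fell short, 6 newly passed and 3 turned. Sparc over Sparcl1 turned to -0.10 and Ddah1 over Ddah2 to 0.47 with library-scaled counts, whose construction leaves out length, and Slc4a4 over Slc4a7 to 0.078 with posterior mean TPM, the cause of which was not tested. Of 70 ratios from 1 pup, which have no SD, 68 kept the direction of the mean; Aqp4 over Aqp1 was 0.54 in pup 1 alone and -0.0047 in pup 3 alone, and Slc4a4 over Slc4a7 was 0.48 in pup 1 alone and -0.64 in pup 3 alone. The leading transcript was the same in 34 members under all 3 alternatives. No paired analysis was possible because both libraries belong to 1 group. Depth limits Hopx, S100b, Ntsr2 and Veph1 most, and 2 pups allow no test.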
